A study of Homo sapiens with 8 samples.

Results

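Cadherins are calcium-dependent adhesion proteins, and 30 of their genes were followed in NGP, an established human neuroblastoma line, after transduction with CFC1 or a mock construct. A gene was included where its symbol in the array annotation was CDH, DSC or DSG followed by a number, which took in the classical and related cadherins, the desmocollins and the desmogleins and left out protocadherins and the CDHR genes. They were measured by 38 probes, among 31993 probes and 21524 genes with a symbol. The data are 8 one-color Agilent arrays of total RNA, 4 labelled as mock-infected cells and 4 as CFC1-overexpressing cells, numbered 1 to 4 in each group. All cells were grown in RPMI 1640 with fetal bovine serum, received lentivirus and were selected with puromycin. The labels do not say whether a group is a pool or a clone, and do not give the origin of its 4 samples. Where these were not grown separately, the p-values reflect technical spread between arrays alone.

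Each value in the deposited table is a logarithm, read here as log2, of a probe's signal relative to an unstated baseline for that probe. It gives differences between arrays and no level, so 1 gene cannot be said to be more abundant than another, and whether a gene is expressed at all in these cells is not shown. For the same reason the defining markers of neuroblastoma give differences only and could not be used to check the cell type. Differences below are arrays labelled CFC1 minus mock arrays, with their standard error (SE) from limma, a linear model with moderated variances. Its p-values, adjusted over all 21524 genes by the Benjamini-Hochberg method, were held against a threshold of 0.05, and "passed", "higher" and "lower" refer to that threshold. The transduced gene CFC1 was itself lower in the arrays labelled CFC1 (-0.80, SE 0.276, adjusted p = 0.0398), with an exact two-sided permutation p of 0.057 where 0.029 is the smallest possible. In mock replicates 1 to 4 it read 0.47, 1.10, 0.12 and -0.03, against 0.05, -0.69, -0.59 and -0.30 in CFC1 replicates 1 to 4. Leaving out any of mock replicates 1 and 2 or CFC1 replicates 2, 3 and 4 ended the call, and the difference then lay between -0.82 and -0.57. The position of its probe relative to the transduced cDNA was not determined. Every direction therefore rests on the labels, and the second group is called the arrays labelled CFC1. In bulk RNA, fewer cells of a type and less RNA per cell cannot be told apart.

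Classical cadherins span the membrane once, bind cadherins of a neighbouring cell through their outermost extracellular domain, and are held to the actin cytoskeleton by catenins. Type I members carry the adhesion of epithelia (CDH1, CDH3), of neural and mesenchymal tissue (CDH2) and of muscle (CDH15), while many type II members are expressed in restricted parts of the nervous system and mesenchyme. Desmocollins and desmogleins are the adhesion proteins of desmosomes, where plakoglobin, plakophilins and desmoplakin tie them to intermediate filaments. DSC2 and DSG2 are the isoforms of simple epithelia and heart muscle, whereas the other isoforms belong mainly to stratified epithelia. Neural crest cells, from which neuroblastoma derives, change their set of cadherins as they leave the neural tube and migrate.

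Of the 30 genes, 12 passed the test. In the arrays labelled CFC1, 5 of these were higher and 7 lower. That is 40% of the family, beside 57.9% of all genes tested, 29.7% higher and 28.2% lower. At least a 2-fold difference was reached by 10 of the 30 (33.3%), 3 higher and 7 lower, where 18.7% of all genes did so, 9.71% higher and 8.97% lower. Differences of at least 8-fold were found for 3 members, DSC2, CDH18 and DSG2, all lower, and 1.24% of all genes were lower by as much. None of the 30 was higher by 8-fold, as 2.21% of all genes were. The groups did not overlap in 11 members (36.7%), against 56.5% of all genes. The median difference was -0.16 over the family and -0.09 over all genes. The family thus held a smaller share of called genes than the whole table and a larger share of differences above 2-fold, and neither share was tested. Members also varied more within a group. Their median standard deviation (SD) was 0.236 in mock and 0.179 in the arrays labelled CFC1, against 0.113 and 0.106 over all genes. The part of this spread in the share of calls was not tested.

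**Figure D1:**
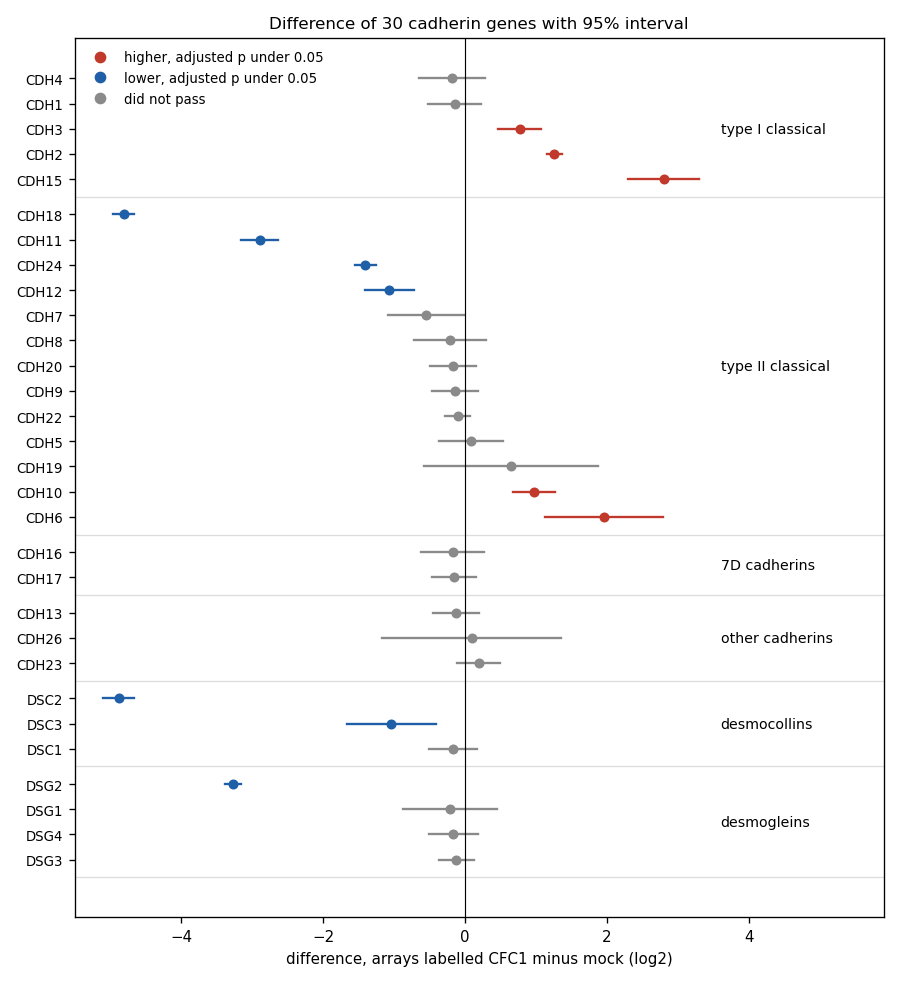
Difference between the groups for the 30 genes (log2, arrays labelled CFC1 minus mock, x axis) with 95% intervals from limma, grouped by class; red and blue points passed the test as higher and lower, grey points did not. The passed genes lie from -4.88 (DSC2) to 2.80 (CDH15), and the 18 grey genes from -0.55 to 0.65.

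Of the 5 type I classical cadherins, 3 were higher and 0 lower in limma, also 0 lower at an unadjusted p under 0.05. The 60% that passed are close to the 57.9% of all genes, of which 29.7% were higher and 28.2% lower. The direction shared by these 3 genes was not tested. CDH2, N-cadherin, the main classical cadherin of neural tissue, stood at 0.00, 0.17, 0.17 and 0.15 in mock replicates 1 to 4. It stood at 1.39, 1.39, 1.38 and 1.36 in the arrays labelled CFC1. All 4 of the latter lay above all 4 mock arrays, and their spread was narrow (SD 0.014, against 0.081 in mock). The difference was 1.26 (SE 0.046, adjusted p = 2.00e-07), and the 2 probes of the gene differed in size but not in direction (0.81 and 1.72).

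CDH15, M-cadherin, known from muscle precursors, had the largest upward difference of the family. It read -1.46, -0.57, -1.62 and -1.25 in mock and 1.54, 1.60, 1.53 and 1.64 in the arrays labelled CFC1. The groups were far apart, with mock replicate 2 the highest of its group, and the mock arrays were the more variable (SD 0.462 against 0.053). The difference was 2.80 (SE 0.213, adjusted p = 1.22e-05). CDH3, P-cadherin, lay between 0.00 and 0.24 in mock and between 0.58 and 1.15 in the arrays labelled CFC1, with no overlap (0.77, SE 0.131, adjusted p = 0.00128). After quantile normalization the CDH3 difference was 1.21.

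CDH1, E-cadherin, the epithelial cadherin, did not pass. It gave -0.09, -0.20, -0.24 and 0.41 in mock and -0.17, -0.40, -0.13 and 0.00 in the arrays labelled CFC1. Mock replicate 4 was the highest and the groups overlapped, with a difference of -0.14 (95% interval -0.51 to 0.23, adjusted p = 0.466). CDH4, R-cadherin, known from retina and brain, overlapped as well, with -0.18 (95% interval -0.65 to 0.28).

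Among the 13 type II classical cadherins, 4 were lower, 2 were higher and 7 did not pass. Thus 46.2% of them passed, beside 57.9% of all genes. CDH18, a cadherin of the central nervous system, stood at 5.00, 4.91, 5.03 and 4.93 in mock and at 0.00, 0.25, 0.18 and 0.21 in the arrays labelled CFC1. No array came near the other group, and the SD was 0.056 in mock and 0.109 in the second group. The difference was -4.81 (SE 0.062, adjusted p = 1.71e-09), the smallest adjusted p in the family.

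CDH11, OB-cadherin, known from mesenchyme and bone-forming cells, gave 2.61, 2.61, 3.08 and 2.91 in mock. In the arrays labelled CFC1 it gave -0.11, -0.12, -0.10 and -0.04, so that these 4 lay together and well below the mock arrays. The difference was -2.89 (SE 0.111, adjusted p = 2.72e-07), with both probes lower (-3.32 and -2.46). CDH24, a relative of CDH11, was lower by a smaller amount: 1.56, 1.38, 1.51 and 1.45 in mock against -0.02, -0.02, 0.14 and 0.18. Its groups were also fully apart (-1.40, SE 0.064, adjusted p = 7.09e-07), and the difference was -0.92 after quantile normalization.

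CDH12, a brain cadherin, ran from 0.98 to 1.50 in mock (replicates 1 to 4 at 1.43, 0.98, 1.50 and 1.35). The arrays labelled CFC1 ran from 0.00 to 0.49 (0.36, 0.49, 0.15 and 0.00). The groups did not overlap, and mock replicate 2 and CFC1 replicate 2 were the nearest to each other. The difference was -1.06 (SE 0.147, adjusted p = 3.92e-04), or -0.56 with an adjusted p of 0.0253 after quantile normalization.

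CDH10, likewise known from brain, differed in the other direction. It read 0.27, 0.00, 0.63 and 0.38 in mock, against 1.30, 1.23, 1.29 and 1.34 in the arrays labelled CFC1. The second group was both higher and tighter (SD 0.045 against 0.262). The difference was 0.97 (SE 0.124, adjusted p = 2.40e-04), just under 2-fold, and 1.54 after quantile normalization.

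CDH6, K-cadherin, known from developing kidney and from neural crest, was the least uniform of the called type II genes as the mean of its 2 probes. It gave -2.07, -1.51, -1.81 and -1.67 in mock and 1.20, -0.56, 0.10 and 0.03 in the arrays labelled CFC1. The groups did not overlap, but CFC1 replicate 1 stood well above the other 3 and CFC1 replicate 2 below them (SD 0.736). The difference was 1.96 (SE 0.353, adjusted p = 0.00178). It came mainly from 1 of the 2 probes, which was 2.89 higher (adjusted p = 5.19e-06). The other probe differed by 1.03 with an SE of 0.673 and did not pass (adjusted p = 0.296). The spread of the arrays labelled CFC1 came from this other probe, which read 2.44, -1.04, 0.22 and 0.06 (SD 1.46). On the same arrays the probe that passed read -0.04, -0.09, -0.02 and 0.00 (SD 0.037).

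The 7 type II genes that did not pass were CDH5, CDH7, CDH8, CDH9, CDH19, CDH20 and CDH22. CDH5, VE-cadherin of endothelium, differed by 0.08 (95% interval -0.37 to 0.53). For CDH7, a cadherin of migrating neural crest, the mock arrays ran from 0.20 to 1.27 and the others from -0.08 to 0.24, with a difference of -0.55 and an adjusted p of 0.0746. Without mock replicate 2 that gene passed (-0.69, adjusted p = 0.0357). CDH19, a cadherin of Schwann cell precursors, had 1 array far from the rest: CFC1 replicate 1 stood at 2.19 and the other 7 between -0.27 and 0.28. Its difference was 0.65 (95% interval -0.57 to 1.87) with all arrays and 0.10 without that array.

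**Figure D2:**
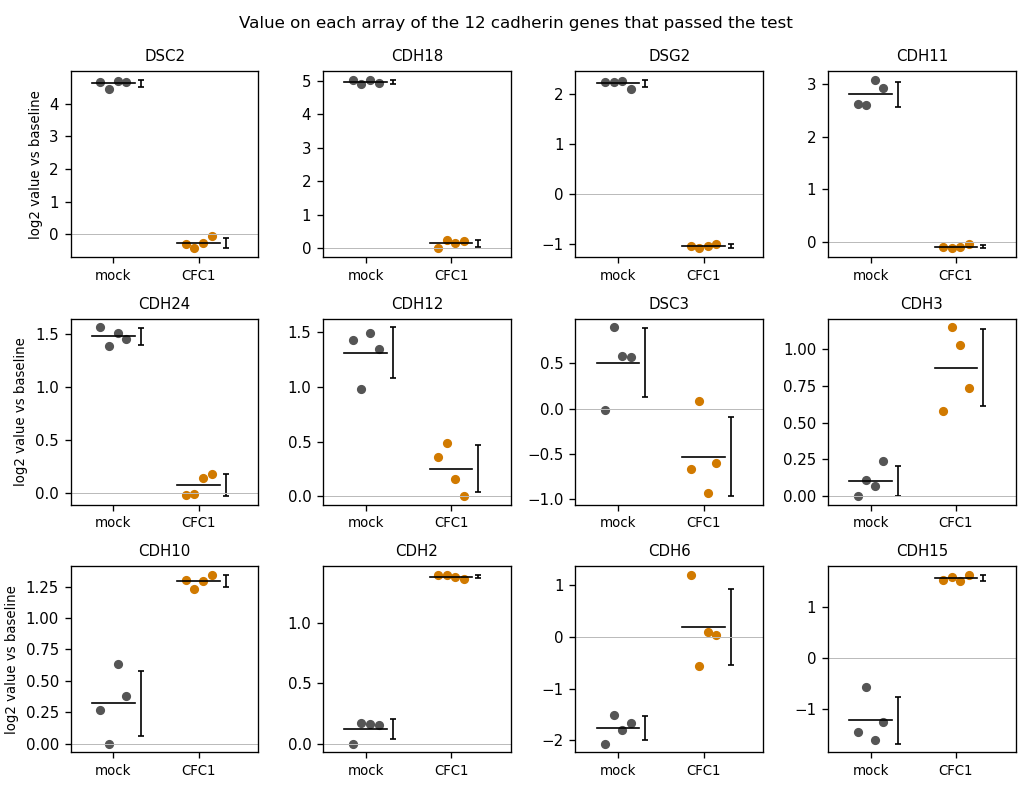
Value on each of the 8 arrays (log2 relative to an unstated baseline, y axis with its own range in each panel) for the 12 genes that passed, mock in grey and arrays labelled CFC1 in orange; the horizontal line is the group mean and the bar beside it 1 SD (n = 4). The groups are apart in every panel except that of DSC3, where mock replicate 1 (-0.02) lies under CFC1 replicate 2 (0.09).

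Of the 7 desmosomal cadherins, 3 were lower and 0 higher in limma, also 0 higher at an unadjusted p under 0.05. The 42.9% that passed lie below the 57.9% of all genes, of which 28.2% were lower and 29.7% higher. The direction shared by these 3 genes was not tested. DSC2 gave 4.67, 4.45, 4.69 and 4.66 in mock and -0.29, -0.43, -0.27 and -0.05 in the arrays labelled CFC1. It had the most negative difference of the family, with the groups apart by many times their spread (-4.88, SE 0.092, adjusted p = 8.04e-09). DSG2, the desmoglein found beside DSC2 in simple epithelia and heart, gave 2.25, 2.25, 2.27 and 2.11 in mock. The arrays labelled CFC1 gave -1.05, -1.10, -1.05 and -1.0. Neither group of DSG2 lay near the baseline, and the difference was -3.27 (SE 0.047, adjusted p = 2.53e-09).

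DSC3, of the basal layers of stratified epithelia, was lower with more scatter. It read -0.02, 0.90, 0.58 and 0.57 in mock, against -0.66, 0.09, -0.93 and -0.60 in the arrays labelled CFC1. The groups overlapped by 1 array on each side, and the difference was -1.04 (SE 0.265, adjusted p = 0.0107). Only 1 of its 2 probes passed (-1.93, adjusted p = 0.0252), and the other stood at -0.14 (adjusted p = 0.389). DSC1, DSG1, DSG3 and DSG4, of stratified and cornified epithelia, did not pass, with differences from -0.21 to -0.12.

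The 7 desmosomal genes follow one another on chromosome 18 with no other measured gene between them, in the order DSC3, DSC2, DSC1, DSG1, DSG4, DSG3 and DSG2. The promoter windows of 6 of them, 250 bases before to 50 after the start, are shown because genes that were lower and genes that did not pass lie side by side in this cluster. They are RefSeq sequences of build GRCh38.p14, 5′ to 3′ as the table gives them, with every CG dinucleotide in capitals. DSC2 has 2 annotated starts, here windows A and B.
DSC3 (chr18:31042693-31042992, minus strand): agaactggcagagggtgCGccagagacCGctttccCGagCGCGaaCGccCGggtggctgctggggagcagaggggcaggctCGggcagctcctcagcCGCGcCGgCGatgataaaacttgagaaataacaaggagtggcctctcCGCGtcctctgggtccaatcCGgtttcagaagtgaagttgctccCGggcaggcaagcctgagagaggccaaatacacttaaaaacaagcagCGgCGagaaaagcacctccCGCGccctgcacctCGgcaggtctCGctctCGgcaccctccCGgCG
DSC2, window A (chr18:31101211-31101510, minus strand): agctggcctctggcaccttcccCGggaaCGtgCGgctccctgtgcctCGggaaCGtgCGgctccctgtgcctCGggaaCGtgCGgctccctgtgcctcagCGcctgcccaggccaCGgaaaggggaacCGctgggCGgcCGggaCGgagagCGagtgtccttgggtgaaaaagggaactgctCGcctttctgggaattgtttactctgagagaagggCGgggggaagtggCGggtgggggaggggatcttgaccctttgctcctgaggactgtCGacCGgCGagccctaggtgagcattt
DSC2, window B (chr18:31102372-31102671, minus strand): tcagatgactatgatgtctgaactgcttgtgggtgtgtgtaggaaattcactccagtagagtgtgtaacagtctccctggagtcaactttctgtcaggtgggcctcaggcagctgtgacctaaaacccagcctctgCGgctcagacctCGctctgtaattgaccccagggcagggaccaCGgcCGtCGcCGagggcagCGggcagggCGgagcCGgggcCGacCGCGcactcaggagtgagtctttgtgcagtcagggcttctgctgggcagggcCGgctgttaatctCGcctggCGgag
DSG2 (chr18:31497927-31498226, plus strand): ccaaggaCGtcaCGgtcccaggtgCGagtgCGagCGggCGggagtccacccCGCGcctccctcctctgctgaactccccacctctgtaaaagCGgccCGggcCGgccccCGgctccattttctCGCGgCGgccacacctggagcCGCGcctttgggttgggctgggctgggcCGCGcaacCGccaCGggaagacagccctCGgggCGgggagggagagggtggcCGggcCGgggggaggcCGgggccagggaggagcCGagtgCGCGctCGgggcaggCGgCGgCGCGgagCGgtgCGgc
DSC1 (chr18:31162807-31163106, minus strand): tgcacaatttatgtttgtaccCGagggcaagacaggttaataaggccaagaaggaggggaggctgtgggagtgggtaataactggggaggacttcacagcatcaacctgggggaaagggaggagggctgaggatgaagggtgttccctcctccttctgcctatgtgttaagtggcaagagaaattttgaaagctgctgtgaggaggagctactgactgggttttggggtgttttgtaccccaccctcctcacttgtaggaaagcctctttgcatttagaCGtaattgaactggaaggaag
DSG1 (chr18:31317910-31318209, plus strand): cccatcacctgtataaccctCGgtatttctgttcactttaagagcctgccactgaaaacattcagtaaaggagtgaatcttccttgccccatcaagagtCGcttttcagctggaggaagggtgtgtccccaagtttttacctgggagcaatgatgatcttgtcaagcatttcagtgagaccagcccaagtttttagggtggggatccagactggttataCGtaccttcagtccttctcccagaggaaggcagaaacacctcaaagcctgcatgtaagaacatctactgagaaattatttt
DSG3 (chr18:31447491-31447790, plus strand): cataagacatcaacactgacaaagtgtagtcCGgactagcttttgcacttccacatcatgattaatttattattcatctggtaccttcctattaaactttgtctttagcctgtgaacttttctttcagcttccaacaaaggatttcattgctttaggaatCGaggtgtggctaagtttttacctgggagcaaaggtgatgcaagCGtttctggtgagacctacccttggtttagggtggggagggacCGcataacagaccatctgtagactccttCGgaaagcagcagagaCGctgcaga

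The windows of the 3 lower genes held more CG dinucleotides than those of the other 3. DSC3 had 25, DSC2 had 22 and 15 in its windows A and B, and DSG2 had 36. DSC1 had 2, DSG1 had 3 and DSG3 had 6. Over all 35116 windows of this length in the table the median was 14, with quartiles of 4 and 28. The property was chosen after the differences were seen and is a description of 6 genes. It did not separate the wider family, of which 18 members were searched. The windows of called genes had 1 to 36 CG dinucleotides (median 13) and those of the others 1 to 43 (median 7). CDH18, with the second largest fall, had 3 annotated starts with 3, 18 and 5, and CDH2, which was higher, had 2 with 4 and 23.

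The E-box CACCTG, searched on both strands (CAGGTG on the other), is a site letter pattern of the SNAIL and ZEB repressors known from the CDH1 promoter. It occurred in 5 of the 30 member windows (16.7%) and in 20.6% of all windows. DSG2 held it 2 times, and DSC2 (window B), DSG1, CDH4 and 1 window of CDH23 held it once each. A match is a description of these letters, not a bound site.

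Order along other chromosomes showed the same mixture of calls. On chromosome 5, the members in order were CDH18 (-4.81), CDH12 (-1.06), CDH10 (0.97), CDH9 (-0.14, did not pass) and CDH6 (1.96). The first pair was lower and 2 of the next 3 were higher, although at most 2 other measured genes lay between neighbours of this series. On chromosome 16, CDH11 (-2.89) lay directly after CDH8 (-0.22, did not pass), and CDH3 (0.77) directly before CDH1 (-0.14, did not pass). CDH2 (1.26) was the nearest measured gene to DSC3 on chromosome 18, on the side away from DSC2.

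The 2 nearest measured genes on each side of the 12 called members gave 30 pairs of a member and a flanking gene outside the family. In 10 pairs the flanking gene was called in the member's direction, in 5 in the opposite direction, and in 15 it did not pass, a smaller share of calls than the 57.9% over all genes. Beside CDH18, BASP1 and GUSBP1 were lower (-0.31 and -0.35) and MYO10 was higher (0.74). Beside DSG2, TTR (-0.07) and B4GALT6 (-0.15) did not pass. Beside CDH2, CHST9 was lower (-3.04) and AQP4-AS1 did not pass (0.18). Beside CDH6, the noncoding RNA gene PURPL was lower (-3.90), C5orf22 was higher (0.29) and DROSHA did not pass (0.04). The flanking genes of CDH3 were higher like CDH3 itself (ZFP90 0.81, SMPD3 0.46, TANGO6 0.24).

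**Figure D3:**
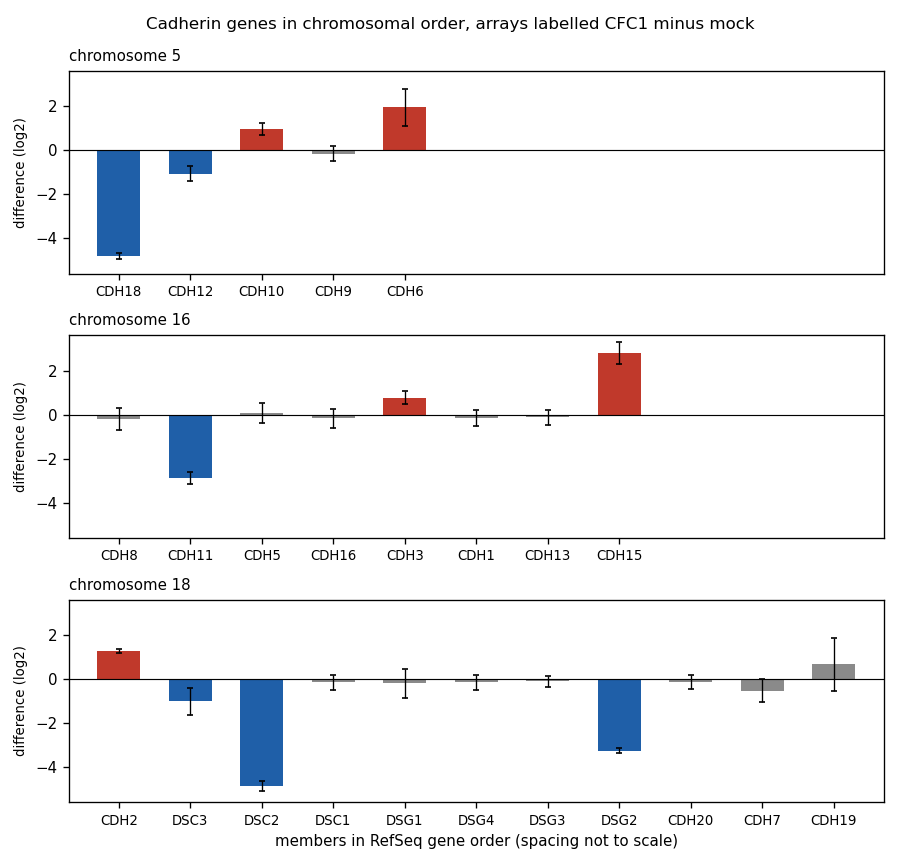
Difference between the groups (log2, y axis, with 95% interval) for the members on chromosomes 5, 16 and 18 in RefSeq gene order along the x axis, spacing not to scale; red and blue bars passed the test, grey bars did not. In the desmosomal cluster DSC3, DSC2 and DSG2 reach -1.04, -4.88 and -3.27, and the 4 genes between them stay within -0.21 and -0.12.

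The remaining 5 cadherins did not pass. CDH16 and CDH17, 7-domain cadherins of kidney and of liver and intestine, differed by -0.17 and -0.16. CDH13, T-cadherin, which is held to the membrane by a lipid anchor, differed by -0.13. CDH26 had a wide interval (0.09, 95% interval -1.16 to 1.35), with arrays from -1.05 to 0.79 in mock and from -0.92 to 0.72 in the other group. CDH23, which forms the tip links of hair cells, averaged 0.19 over 3 probes that disagreed: 1 passed as higher (1.16, adjusted p = 8.72e-04), and the others stood at -0.05 and -0.54 and did not pass. After quantile normalization the mean of CDH23 passed (0.60, adjusted p = 0.0022), so a single value does not describe this gene.

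**Figure D4:**
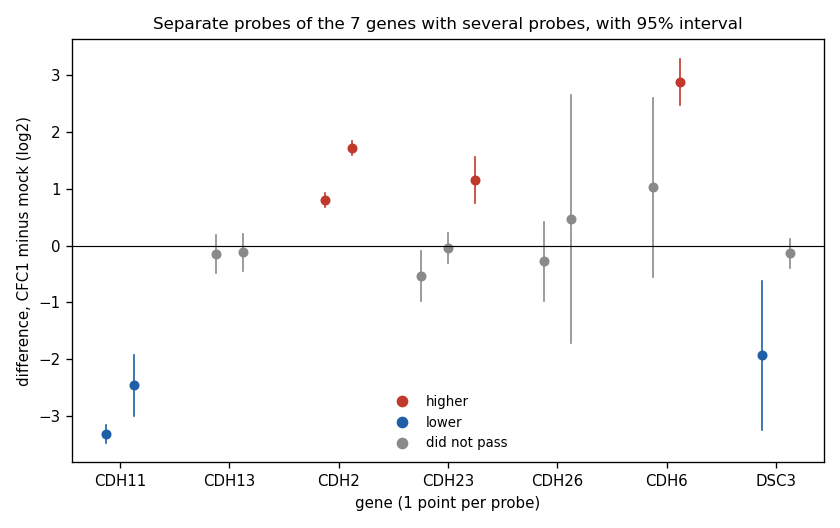
Difference between the groups (log2, y axis, with 95% interval) for each probe of the 7 members with several probes; red and blue points passed over all probes, grey points did not. Both probes of CDH2 and of CDH11 passed in 1 direction, while CDH6, DSC3 and CDH23 each had 1 probe that passed and at least 1 that did not.

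A pattern shared across arrays marked 8 of the 18 genes that did not pass. CDH1, CDH9, CDH13, CDH17, CDH20, DSC1, DSG3 and DSG4 each stayed within 0.2 of a common profile, the median of the 18 genes on each array. In mock replicate 4 they lay between 0.23 and 0.41, in the other mock arrays between -0.26 and -0.08, and in CFC1 replicate 2 between -0.45 and -0.25. CFC1 replicate 4 was the highest of its group for each of them (-0.04 to 0.07). The profile itself ran -0.09, -0.20, -0.20 and 0.28 in mock replicates 1 to 4. Across CFC1 replicates 1 to 4 it ran -0.14, -0.30, -0.28 and 0.00. When limma was fitted with the replicate number as a block, CDH17 and DSC1 passed as lower (adjusted p = 0.046 and 0.0228). The median of all probes also was highest in mock replicate 4 (0.14, against -0.14 to -0.03 in the other arrays). That of all genes was 0.06 in mock replicate 4, against -0.10 to -0.02 in the other arrays. Of all genes, 6.86% lay as close to this profile, and 16.2% of the genes that did not pass. The profile was made from the 18 genes themselves, so the share of members near it is partly fixed by construction and is not comparable with these percentages. The table has no background flags, so whether these probes were near background was not tested, and for these genes the absence of a call does not show equal expression.

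**Figure D5:**
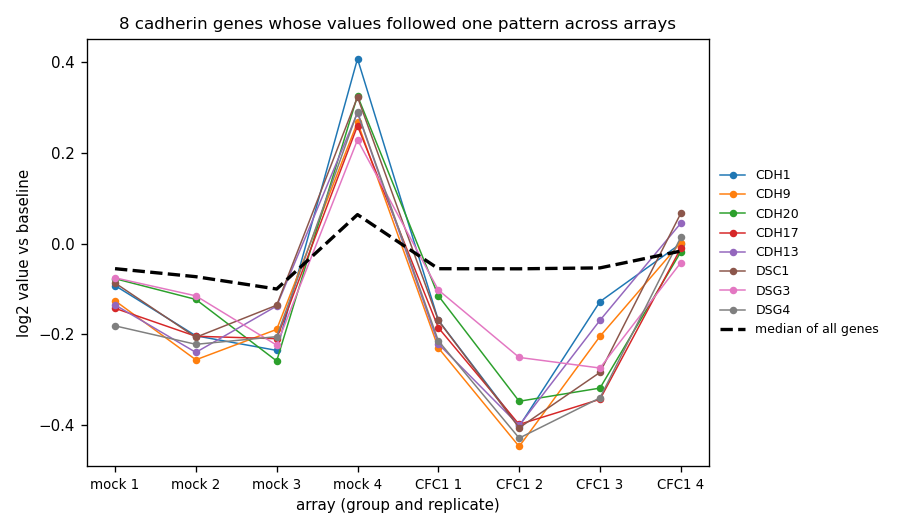
Values of 8 members that did not pass (log2 relative to an unstated baseline, y axis) on each array (x axis), with the median of all genes as a dashed line; lines only join the values of 1 gene. All 8 peak in mock replicate 4 (0.23 to 0.41), and 7 of them are lowest in CFC1 replicate 2.

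The intracellular partners of cadherins were counted from lists chosen with earlier results of these data known. Over all genes tested 57.9% passed, 29.7% higher and 28.2% lower, and each list is to be read against these shares. Of 14 genes of the adherens junction, 2 were higher, 6 lower and 6 did not pass, so that 57.1% passed, close to the share over all genes (median -0.17, all genes -0.09). CTNND1, p120-catenin, which stabilizes classical cadherins at the surface, was lower by 1.12 on the log2 scale (-1.12, adjusted p = 2.51e-05), and its relative ARVCF stood at -0.54. The nectins, adhesion molecules that cluster beside cadherins, differed in both directions: NECTIN2 was higher (4.38, adjusted p = 1.05e-06) and NECTIN1 lower (-0.81).

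In the desmosomal plaque, 3 of 9 genes were lower, 2 higher and 4 did not pass (median 0.17). The 55.6% that passed are close to the share over all genes. PKP2, plakophilin 2, which anchors DSG2 and DSC2 in heart and simple epithelia, averaged 0.81 in mock and -3.23 in the arrays labelled CFC1 (-4.04, SE 0.077, adjusted p = 8.66e-09). PPL, periplakin, and PKP3, another plakophilin, were lower at -1.76 and -1.24. JUP, plakoglobin, was higher (0.69, adjusted p = 3.56e-06), and DSP, desmoplakin, did not pass (0.31, adjusted p = 0.516). PKP4, a plakophilin relative that also binds classical cadherins, was higher (0.73). Quantile normalization gave larger falls for PKP2 (-6.37), PPL (-2.85) and PKP3 (-2.10), and a smaller difference for PKP4 (0.61).

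Of 17 transcription factors known to act on cadherin genes, 4 were higher, 5 lower and 8 did not pass (median 0.00). The 52.9% that passed are near the 57.9% of all genes. ZEB2 and SNAI1, zinc finger repressors of CDH1, were lower (-2.04 and -1.01). Their relatives differed from them: ZEB1 was higher (0.45, adjusted p = 1.89e-05) and SNAI2 did not pass (0.03). TWIST2, a basic helix-loop-helix factor, was higher (3.18), with probes from 1.12 to 6.82. GRHL1, an activator of desmosomal genes in epidermis, was higher (0.68), with its 2 probes at -0.17 and 1.53. Quantile normalization gave -1.41 for ZEB2, -0.60 for SNAI1, 2.14 for TWIST2 and 0.69 for GRHL1.

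Enzymes and adaptors of cadherin processing and turnover gave 6 of 17 measured genes higher, 5 lower and 6 that did not pass (64.7% passed, median -0.15). PSEN2, a catalytic subunit of gamma-secretase, and ADAM15, a membrane metalloprotease, were higher (2.01 and 1.74). PCSK5 and PCSK7, proprotein convertases, differed in opposite directions (-1.35 and 0.75). With quantile normalization PSEN2 stood at 1.59, ADAM15 at 1.31, PCSK5 at -0.96 and PCSK7 at 0.62.

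The other branches of the cadherin superfamily had 7 of 29 genes higher, 13 lower and 9 that did not pass (69.0% passed, median -0.20). CLSTN3, a calsyntenin of synapses, was higher (3.91, adjusted p = 2.35e-09). PCDH7, PCDH20 and PCDH17, non-clustered protocadherins, were lower (-3.86, -2.89 and -2.78). Under quantile normalization CLSTN3 stood at 2.72, PCDH7 at -3.51, PCDH20 at -2.33 and PCDH17 at -3.47.

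Marker genes of the tissue and of other cell types were counted with the cadherins themselves left out, and their part in the results on cadherins was not tested. Beside the 57.9% of all genes, 81.8% of the neuroblastoma markers passed, 88.9% of the fibroblast and mural and 80% of the Schwann and glial markers. The epithelial list (58.3%) was at the share of all genes, and the keratinocyte (37.5%) and endothelial (30%) lists lay below it. Of 11 measured neuroblastoma markers, 1 was higher and 8 lower (mean over the list 0.98 in mock, -0.02 in the arrays labelled CFC1), led by DDC (-2.51), CHGB (-2.48), ISL1 (-2.18) and GATA2 (-1.66). Of 12 epithelial markers, 4 were higher and 3 lower, with EPCAM at -2.86, KRT19 at 2.84, CLDN3 at 1.51 and ESRP1 at 0.98, and 8 keratinocyte markers gave 1 higher (IVL 1.24) and 2 lower (KRT10 -1.21, KRT14 -0.72). Beside CDH5, 3 of 10 endothelial markers were lower (KDR -3.08, TEK -2.89, ROBO4 -1.23) and 0 higher in limma, also 0 at an unadjusted p under 0.05. Beside CDH11, 7 of 9 fibroblast and mural markers were lower and 1 higher, with RGS5 at -3.83, PDGFRA at -2.78, COL1A1 at -1.44 and DCN at -1.13 (probes -2.10 and -0.17; mean over the list 0.96 in mock and -0.19 in the arrays labelled CFC1). Beside CDH19, 4 of 5 measured Schwann and glial markers were lower (S100B -1.35 with probes at -2.55 and -0.15, FABP7 -1.17, GFAP -0.90 and SOX10 -0.88) and 0 higher in limma, also 0 at an unadjusted p under 0.05. ESRP1 stood at 0.19 after quantile normalization (adjusted p = 0.804). Leaving out any of mock replicates 1, 2 and 3 or CFC1 replicate 3 ended its call too. ROBO4 lost its call after quantile normalization (-0.99, adjusted p = 0.0676) and whenever 1 array other than mock replicate 3 or CFC1 replicate 4 was left out. FABP7 lost its call whenever 1 array other than mock replicate 3 was left out. With unmoderated variances ESRP1, ROBO4 and FABP7 had adjusted p-values of 0.0573, 0.0623 and 0.0532. The 3 probes of KRT14 ran from -2.38 to 0.56, and its call was lost with their median (-0.83, adjusted p = 0.059) and after quantile normalization (-0.46, adjusted p = 0.127).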

How the data were processed

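Gene expression in NGP cells was measured on 8 one-color arrays after Cyanine3 labelling, per the labels' protocols. The deposited values are on a log scale read as log2, with feature extraction, scaling and log base not given in the sources used here. They run from -13.0 to 9.81, with array medians from -0.14 to 0.14, and no probe has all arrays on 1 side of 0. Precision is limited by the number of arrays. After removal of 140 control spots from 50739 rows, 31993 of 50599 probes had 1 gene symbol in the platform annotation and 18606 had none. Symbols were updated through the RefSeq gene table of GRCh38.p14 (28423 by accession, 3069 by symbol, 479 by synonym, 22 kept). The mean over the probes of a gene gave 21524 genes. Coordinates are given for the printed promoter windows only, in GRCh38.p14, as no build is stated for the array annotation.

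The groups were compared with limma 3.58.1 in R 4.3.3 (lmFit, eBayes without trend, all 8 arrays, no replicate block), two-sided, with Benjamini-Hochberg adjustment and a threshold of 0.05. The labels name no batch. Members, lists and tests were chosen with earlier results of these data known. Values on every array were to be given for members that passed with at least a 2-fold difference and no overlap, and for CDH1, CDH2, CDH11 and DSC3. CDH10 and the further values for CDH3, CDH5, CDH7, CDH12, CDH19, CDH23 and CDH26, and CG counts, were chosen after values were seen. Up to 4 called genes with the largest difference were named from each of 11 lists (5 of partners, regulators, processing enzymes and relatives, 6 of cell type markers). ZEB1, SNAI2, JUP and DSP were named as well, after values were seen. The lists hold 5 further genes not analysed here. Promoter windows were matched by symbol for 18 of the 30 members. Member windows on chromosome 8, where CDH17 lies, were left out beforehand. CDH1, CDH3, CDH5, CDH6, CDH11, CDH13, CDH15, CDH16, CDH17, CDH22, CDH24 and DSG4 had none printed or searched. Alternatives were quantile normalization, median centring, a block for the replicate number, E1A control spots, array weights and a variance trend. The trend followed the mean absolute value of a gene over the arrays, not its signal level, which the values do not give. Further alternatives were unmoderated variances, a fit over all probes, the median of probes, and each array left out. Python 3.11.15, pandas 2.3.3, numpy 2.4.6 and matplotlib 3.10.9 were used.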

Additional observations from a re-analysis of the deposited data

Results flagged for a closer look

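In groups of 4 arrays, 8 of 146 examined groups (2 for each of 73 genes) had 1 array far from the other 3 by Dixon's criterion at the 95% level. Chance flags about 1 in 20 groups, which is 7.3 of 146. CDH2 in mock replicate 1 stood at 0.00 against 0.15 to 0.17, and DSC2 in mock replicate 2 at 4.45 against 4.66 to 4.69. DSG2 in mock replicate 4 was 2.11 against 2.25 to 2.27. These 3 distances are small beside the differences between the groups. DSG1 in mock replicate 1 was -0.78 against 0.00 to 0.16, and CDH22 in mock replicate 2 was 0.20 against -0.05 to -0.03. Mock replicate 4 was the high array for CDH17 (0.26 against -0.21 to -0.14) and for DSG4 (0.29 against -0.22 to -0.18), both members of the set with the shared profile. Involucrin, IVL, in CFC1 replicate 2 was 0.17 against 0.69 to 0.79.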

How the results depend on the processing

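All 12 members that passed kept their direction and their call under each of 17 other ways to process or fit the data, 8 of which left out 1 array. The median of probes could not change these differences, as each of the 12 had 1 or 2 probes. The fit over all probes took the probe with the smallest adjusted p for each gene. It therefore kept CDH6 and DSC3 although their other probe did not pass. Counts of called members ran from 12 to 15, of higher members from 5 to 6 and of lower members from 7 to 10. The CFC1 difference lost its call with the replicate block (-0.796, adjusted p = 0.0761), quantile normalization (-0.736, adjusted p = 0.0678), median centring (-0.754, adjusted p = 0.0582), E1A control spots (-0.719, adjusted p = 0.0722), unmoderated variances (-0.796, adjusted p = 0.0662) and the fit over all probes (-0.796, adjusted p = 0.0546). Leaving out single arrays gave -0.944 to -0.568, and the call was lost without mock replicate 1 or 2 and CFC1 replicate 2, 3 or 4. Endothelial markers called numbered 5 with the replicate block and 2 to 5 with single arrays left out, 5 of them without mock replicate 3. The causes were not tested. If the values were natural logarithms, a reading tried after seeing the data, 12 members rather than 10 would pass 2-fold.

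Same-numbered arrays of the groups had correlations of deviations of 0.138, 0.199, 0.074 and 0.190 over genes, each above those with other numbers, which is a hint from the data and not from the design. The labels state no pairing, so the number was left out of the main fit and entered as a block in an alternative only. Whether the arrays were paired cannot be told from these data. The replicate block raised the count of called members from 12 to 15, adding CDH16 (adjusted p = 0.0361), CDH17 (0.046) and DSC1 (0.0228) as lower, and the count of all genes from 12456 to 13200. ESRP1 lost its call under the block (adjusted p = 0.0676).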
